A study of Homo sapiens with 12 samples.

Results

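The nuclear-encoded subunits of oxidative phosphorylation were followed in WM-266-4 cells, a human melanoma line, that express different forms of the receptor tyrosine kinase TYRO3. The genes were chosen by name, as the protein-coding genes of GENCODE v29 with the symbols of NDUF, SDH, UQCR, COX and ATP5 subunits, which gave 84 of the 35579 genes in the files. These were 37 genes of complex I, 4 of complex II, 9 of complex III, 15 of complex IV and 19 of complex V. The rule uses names only, and NDUFA4, now regarded as a subunit of complex IV, was kept with complex I by its symbol. All cells carried a stable lentiviral shRNA knock-down of TYRO3 with puromycin selection, were transiently transfected with a plasmid and were starved of serum overnight. The plasmid encoded GFP (control, called an empty plasmid in the paper's text), wild-type TYRO3 (WT), TYRO3 ΔGS, which resists cleavage by γ-secretase, or TYRO3 ΔADAM, which resists cleavage by ADAM proteases. Each of the 4 groups had 1 library in each of 3 experiments, so the 12 libraries could be compared within experiments. The share of cells that took up a plasmid is not given, so each library is an average over transfected and other cells. In such bulk RNA, fewer cells that express a gene and less RNA per cell cannot be told apart.

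Oxidative phosphorylation passes electrons from NADH through complex I, or from succinate through complex II, to complex III, cytochrome c and complex IV, and uses the resulting proton gradient to make ATP at complex V. Complexes I, III, IV and V hold core subunits from mitochondrial DNA beside many nuclear-encoded ones, whereas all of complex II is encoded in the nucleus. In melanocytes and a subset of melanomas, the coactivator PGC-1α, encoded by PPARGC1A, is a target of the lineage factor MITF and a known activator of these genes.

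Total estimated counts per library ran from 4008293 in the control library of experiment 1 to 38184838 in the control library of experiment 2, and the subunit genes took 0.625% to 0.969% of them. TYRO3 was at 36.35, 27.69 and 30.15 TPM (transcripts per 1000000, a level per length) in the control libraries and at 640.5 TPM or more in every library with a TYRO3 plasmid, so the levels went with the labels. Among the melanocyte markers, SOX10 averaged 327 TPM and PMEL 1128 TPM in the control group. The keratinocyte markers KRT5 and KRT1 were at 0 in all libraries, and the lymphocyte marker CD3E averaged at most 0.0368 TPM in any group. Other markers of these lists were present. The keratinocyte list summed to 77.4 to 117 TPM, carried by KRT10, and the immune list to 33.2 to 55.5 TPM, carried by CD68. A pair of libraries stood apart from the rest. The control library of experiment 1 lay at -76.4 on the first principal component of log2 CPM (counts per 1000000) over all genes tested, against -29.0 to 34.6 for the other 11. The ΔGS library of experiment 3 was the most extreme on the second component, at 43.2 against -36.5 to 26.3. Calls and medians that change without either one are given with and without it.

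**Figure D1:**
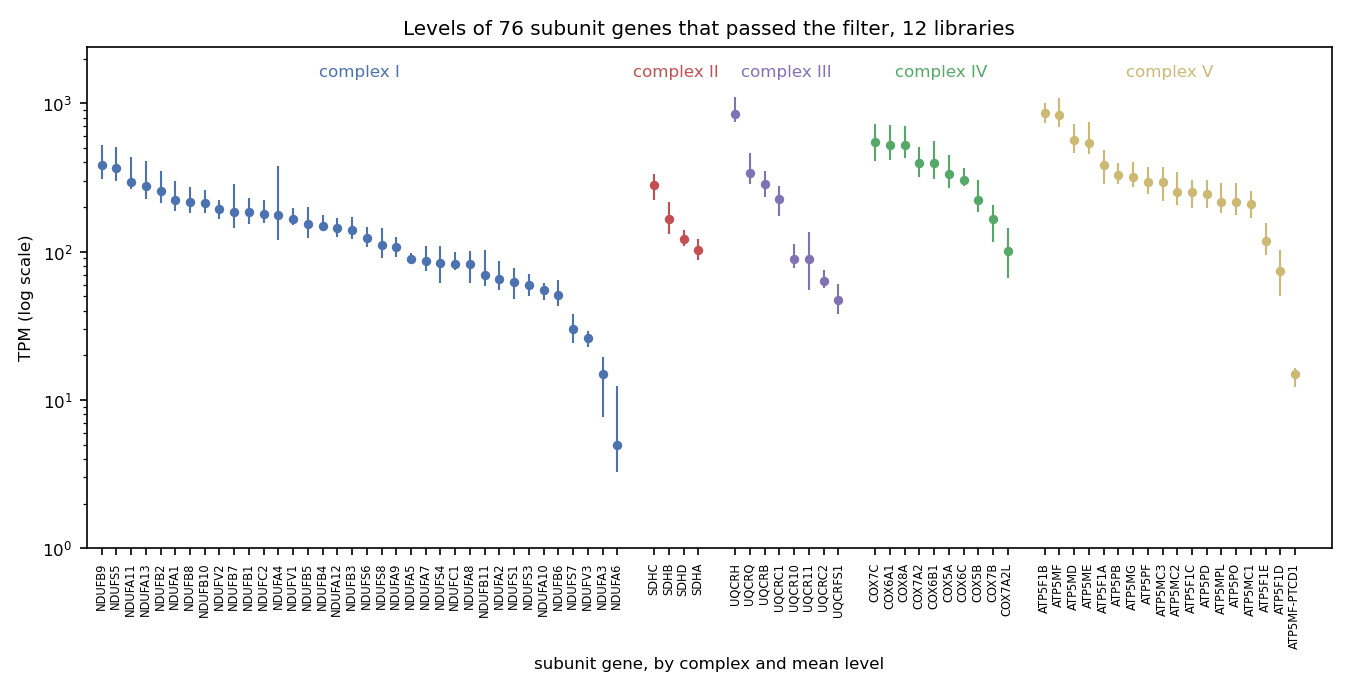
Levels of 76 of the 77 subunit genes that passed the filter on low counts, in TPM on a log scale, ordered by complex and by mean level. Points are means over the 12 libraries and lines run from the lowest to the highest library. Complexes IV and V sit higher than complexes I and II, and NDUFA6 is the lowest gene at a mean of 4.95 TPM. Transcripts that did not match GENCODE v29 are left out of these sums, and whether this lowers the level of NDUFA6 was not tested.

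Of the 84 genes, 77 passed the filter on low counts, which kept a gene with about 10 counts or more in at least 3 libraries. The median level of these genes was 185 TPM. TPM corrects for transcript length, so levels of different genes can be set side by side. By complex, the median was 140 TPM for complex I, 144 TPM for complex II, 157 TPM for complex III, 364 TPM for complex IV and 274 TPM for complex V. The 2 highest genes of complex V were ATP5F1B, the catalytic β subunit, at 858 ± 93 TPM (SD, n = 12), and ATP5MF, a small membrane subunit, at 841 ± 118 TPM, which overlapped. ATP5MD followed with 563 ± 64 TPM. UQCRH, the hinge protein of complex III, was at 849 ± 106 TPM, ahead of UQCRQ at 337 ± 51 TPM. In complex IV, COX7C, COX6A1 and COX8A lay close together at 548 ± 97, 524 ± 75 and 523 ± 81 TPM. The leading genes of complex I, NDUFB9, NDUFS5 and NDUFA11, were at 384 ± 61, 364 ± 56 and 293 ± 48 TPM.

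The 4 complex II genes had mean levels from 103 to 282 TPM. SDHC, a membrane anchor, was the highest at 282 ± 33 TPM, followed by the iron-sulfur subunit SDHB at 167 ± 26 TPM and the second anchor SDHD at 122 ± 9.06 TPM. SDHA, the flavoprotein subunit, was the lowest at 103 ± 10.3 TPM. The ranges of SDHA and SDHD and of SDHD and SDHB over the libraries overlapped, and SDHC lay above SDHB without overlap. The reads of SDHA are shared in part with pseudogenes, which took between 6.09% and 13.8% of the counts of SDHA and its pseudogenes together.

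The 3 genes for the identical mature c subunit of complex V had similar levels. ATP5MC3 was at 297 ± 48 TPM, ATP5MC2 at 252 ± 41 TPM and ATP5MC1 at 211 ± 33 TPM, and the ranges of neighbours overlapped. The identity is that of the mature protein, and whether reads were split between these genes was not tested, so these levels are uncertain.

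The 7 genes below the filter were mostly isoforms known from other tissues. COX6A2, the heart and skeletal muscle isoform, and COX7B2 were at 0 counts in all 12 libraries. COX7A1, the muscle isoform, reached at most 2 estimated counts, COX8C at most 0.5 and the testis isoform COX6B2 at most 14. The remaining genes were UQCRHL, a retrocopy of UQCRH with at most 16.3 counts, and ATP5MGL with at most 3.09. The ubiquitous isoforms COX6A1, COX6B1, COX7A2 and COX8A were at 394 to 524 TPM in the same libraries.

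Promoters of these genes are known for sites of NRF1, of the ETS factor GABPA and of YY1, and the RefSeq promoter windows (GRCh38.p14, 250 bases before to 50 after the start, first window of each gene) were searched for them. A window was found for 68 of the 84 genes, 3 of them through a synonym. The background was all 27305 genes with a window, with no limit to protein-coding or expressed genes, so it is not matched to the subunit genes. The NRF1 core GCGCATGC was present on either strand in 13 of 68 windows (19.1%), against 3.27% of all promoters. The ETS motif CCGGAAG was found in 19 (27.9%), against 10.7%, and the YY1 motif AAGATGGC in 11 (16.2%), against 3.03%. The SP1/KLF motif GGGCGG, which is common, was in 40 windows (58.8%), against 44.6%. Among the 7 genes with a window that fell in the comparison described below, the NRF1, ETS and YY1 motifs were each in 1 (14.3%) and GGGCGG in 4 (57.1%). These are matches of letters and not binding sites.

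The windows below show the motifs in members whose levels are described next, SDHD and SDHB of complex II and ATP5F1C, NDUFS1 and ATP5PB, which were the single matches to each of the 3 motifs among the genes that fell. Each holds 30 bases on the strand of the gene, 5′ to 3′, with the motif or its reverse complement in capitals. The NRF1 motif overlaps its own reverse complement in SDHD and ATP5F1C, and only 1 of the overlapping matches is marked. It starts 110 bases before the RefSeq start of SDHD and 22 bases before that of ATP5F1C.
SDHD, NRF1, chr11:112086752-112086781, plus strand: cagctgtgtttGCGCATGCgcgacgggtgt
ATP5F1C, NRF1, chr10:7788144-7788173, plus strand: ggggagcttcgGCGCATGCgcgctgaggcc
SDHB, ETS, chr1:17054142-17054171, minus strand: cacccgggaaaCCGGAAGccgcctcccact
NDUFS1, ETS, chr2:206159583-206159612, minus strand: ggctggggccaCTTCCGGcggaactgcggg
ATP5PB, YY1, chr1:111449451-111449480, plus strand: acttgtgagcgGCCATCTTggtcctgccct

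With a TYRO3 plasmid most subunit genes were slightly below the control of the same experiment, and few passed the test. In the mean of the 3 TYRO3 groups against GFP, 10 of 77 genes fell and 1 rose at an adjusted p of at most 0.05 with edgeR's quasi-likelihood test, and 66 did not pass. That is 14.3% of the genes tested, beside 15.8% of all 15098 genes, so the number of calls does not set the subunits apart. In the lower direction the share was 13.0%, beside 8.60% of all genes, and 7.23% of all genes rose. The median log2 fold change was -0.12 over the 77 genes and -0.003 over all genes, and 87.0% of the subunit genes were below 0, beside 50.6% of all genes. When the experiment 1 control was left out, the median was -0.03 and 62.8% of the subunit genes were below 0, beside 48.7% of all genes. The median was -0.22 when the experiment 3 control was left out, and -0.18 with 92.3% below 0 when the ΔGS library of experiment 3 was. Among the subunits, 0 were also past a fold change of 1.5, beside 5.68% of all genes.

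These counts depend on the pair of libraries that stood apart. Without the ΔGS library of experiment 3, 35 of 78 genes fell and 1 rose (46.2%), beside 22.4% of all genes and 13.0% in the lower direction, and the 11 genes called with all libraries were among them. Without the control library of experiment 1, 1 of 78 genes was called, UQCRC2 (1.28%), beside 4.51% of all genes. Without both, 10 fell and 1 rose (14.1%), beside 10.8%, and 7 of these 11 were among those called with all libraries. In a fit without the replicate block but with a batch term for experiment 1, 4 of 77 genes were called (5.19%), beside 6.53%.

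**Figure D2:**
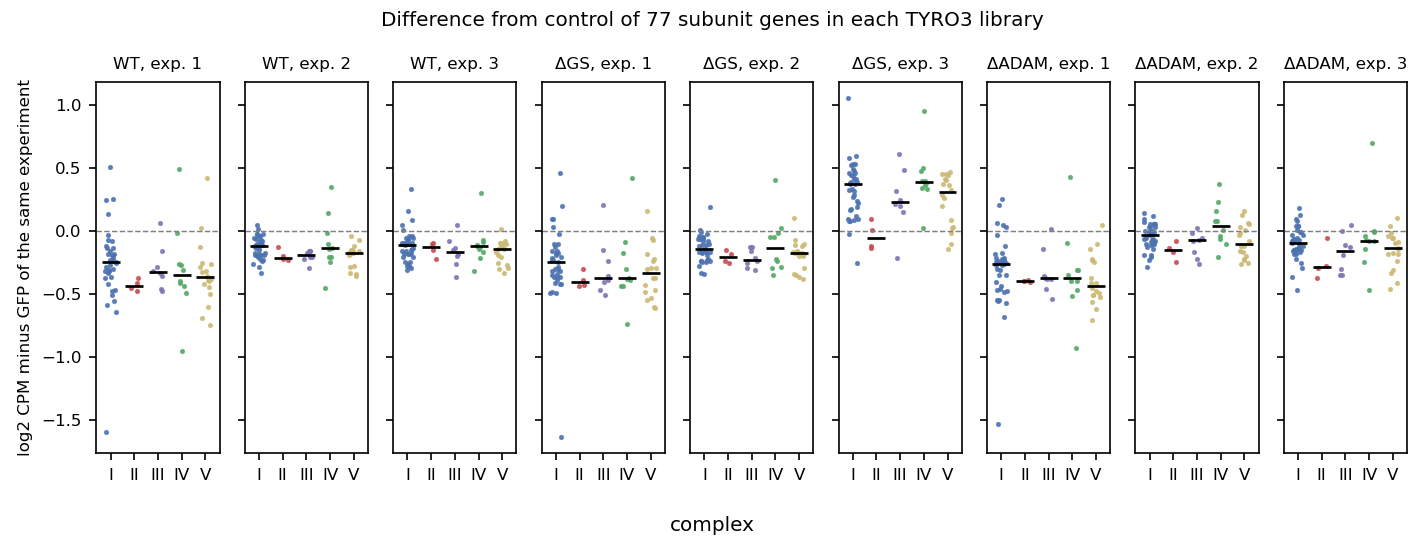
Difference in log2 CPM between each TYRO3 library and the GFP library of the same experiment for 77 subunit genes, by complex I to V. Points are genes and black lines are medians. The medians lie below 0 in 7 of the 9 panels in all complexes. In the ΔGS library of experiment 3 all but complex II lie above 0, and in the ΔADAM library of experiment 2 complex IV lies at 0.042.

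Within experiments the medians of the 77 genes, on the scale of log2 CPM differences, were -0.32, -0.16 and -0.14 for WT TYRO3 in experiments 1, 2 and 3. For ΔADAM TYRO3 they were -0.36, -0.07 and -0.11. For ΔGS TYRO3 they were -0.31, -0.17 and 0.33. The direction was thus the same in 8 libraries and turned in the ΔGS library of experiment 3, where 69 of 77 genes were above the control.

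The single groups were each set against the same 3 control libraries and gave fewer calls. With WT TYRO3, 2 of 77 genes fell (2.60%), beside 3.58% of all genes called and 1.44% that fell, and these were ATP5F1A and UQCRC2. With ΔGS TYRO3, UQCRC2 and ATP5F1A fell and COX7A2L rose (3.90%), beside 8.95% of all genes, of which 4.44% fell and 4.52% rose. With ΔADAM TYRO3, 5 genes fell and 1 rose (7.79%), beside 10.2% of all genes, of which 5.32% fell and 4.86% rose. UQCRC2, ATP5F1A, ATP5MC3 and SDHA were among those that fell, and COX7A2L was again the one that rose. The medians were -0.20 with WT, -0.01 with ΔGS and -0.16 with ΔADAM TYRO3. Without the control library of experiment 1, edgeR called 0 subunits in each single group, with 7, 4 and 7 at an unadjusted p under 0.05 for WT, ΔGS and ΔADAM TYRO3. Without the ΔGS library of experiment 3 the ΔGS median was -0.19.

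Complex II was the complex with the lowest median. All 4 genes lay below 0 in the comparison of the 3 TYRO3 groups with GFP, with a median of -0.24, and 2 of them were called. SDHA had 107, 121 and 114 TPM in the control libraries of experiments 1, 2 and 3. It had 90.4, 105 and 112 TPM with WT, 87.8, 104 and 104 TPM with ΔGS and 89.2, 106 and 98.5 TPM with ΔADAM TYRO3. In each experiment all TYRO3 libraries were below the control, although the ranges overlapped across experiments. Its log2 fold change was -0.28 ± 0.07 (SE), with an edgeR adjusted p of 0.0209. SDHC fell by 0.25 ± 0.07 on the log2 scale (edgeR adjusted p = 0.0300), from 308, 297 and 332 TPM in the control libraries to between 224 and 324 TPM.

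SDHD and SDHB did not pass. SDHD had a log2 fold change of -0.20 ± 0.06 with an edgeR adjusted p of 0.0504, and SDHB one of -0.235 ± 0.09 with an edgeR adjusted p of 0.0997. SDHA lost its call in 9 of 25 alternatives and SDHC in 16. Without the ΔGS library of experiment 3 all 4 genes passed, and without the control library of experiment 1 none did, with log2 fold changes between -0.12 and -0.20 and a median of -0.14. In the ΔGS library of experiment 3 itself, the median of complex II was -0.06, beside 0.37 for complex I, 0.23 for complex III, 0.39 for complex IV and 0.305 for complex V. Differences in this library went with transcript length, as described below, and all 4 complex II genes have long transcripts, of 1041 to 2073 bases. The part of length in the complex II value was not tested.

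In complex III, UQCRC2, a core protein of the complex (chr16:21952660-21983660, GRCh38, plus strand), had the smallest p of all members. The control libraries held 68.6, 74.7 and 72.2 TPM. WT libraries held 60.8, 64.0 and 63.1 TPM, ΔGS libraries 58.3, 62.6 and 56.8 TPM and ΔADAM libraries 58.2, 61.7 and 62.7 TPM. The control group did not overlap with any of the others. The log2 fold change was -0.33 ± 0.06 (edgeR adjusted p = 0.00602), and it was called in each single group. In the mean of the 3 groups it was still called when either of the libraries that stood apart was left out, whereas its calls in the single groups were lost without the experiment 1 control. The other core protein, UQCRC1, was at -0.21 ± 0.09 and the ubiquinone-binding subunit UQCRB at -0.22 ± 0.10, and neither passed. UQCRH and UQCRQ, the most abundant genes of the complex, were at -0.12 ± 0.09 and -0.11 ± 0.11 and did not pass. The median of the 8 genes tested was -0.17, and -0.12 when that control was left out.

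In complex V, 4 of 18 genes fell, beside 8.60% of all genes, and none rose. The median was -0.13, and -0.03 when the experiment 1 control was left out. ATP5F1A, the α subunit of the catalytic head (chr18:46080248-46104334, GRCh38, minus strand), had 423, 473 and 483 TPM in the control libraries. It had 287, 380 and 419 TPM with WT, 301, 379 and 406 TPM with ΔGS and 309, 392 and 378 TPM with ΔADAM TYRO3. All TYRO3 libraries were below all control libraries. The log2 fold change was -0.42 ± 0.08 (edgeR adjusted p = 0.00708). When the experiment 1 control was left out it was -0.30 ± 0.08, with an edgeR adjusted p of 0.0641.

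ATP5F1C, the γ subunit of the central stalk, fell by 0.32 ± 0.08 on the log2 scale (edgeR adjusted p = 0.0229), from 261, 283 and 294 TPM in the control group. ATP5PB, a subunit of the peripheral stalk, fell by 0.28 ± 0.08 (edgeR adjusted p = 0.0373), from 351.5, 363 and 395 TPM. With the experiment 1 control left out these were -0.19 ± 0.08 and -0.19 ± 0.09, with edgeR adjusted p of 0.181 and 0.251. This pair is named because few genes were called, after their values were seen. Both genes were above the control in the ΔGS library of experiment 3, by 0.03 and 0.09 in log2 CPM, and below it in the other 8 libraries. Of the counts of ATP5PB, an average of 7.92% over the libraries lay in transcripts annotated as protein-coding, and in these alone the log2 fold change was -0.50 ± 0.25 with an edgeR adjusted p of 0.214.

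The 3 genes of the c subunit differed in their calls. ATP5MC3 fell by 0.41 ± 0.09 on the log2 scale (edgeR adjusted p = 0.0149), from 321, 346 and 371 TPM to between 220 and 353 TPM. It was at -0.26 ± 0.09 when the experiment 1 control was left out (edgeR adjusted p = 0.121). ATP5MC1 was at -0.29 ± 0.10 (edgeR adjusted p = 0.0698) and ATP5MC2 at -0.09 ± 0.10 (edgeR adjusted p = 0.576). Whether these changes differ from each other was not tested. ATP5F1B, the most abundant gene of all members, was at -0.17 ± 0.06 with an edgeR adjusted p of 0.0680. The abundant small subunits ATP5MF, ATP5MD and ATP5MG were at -0.10 ± 0.11, 0.02 ± 0.11 and -0.09 ± 0.10 and did not pass.

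**Figure D3:**
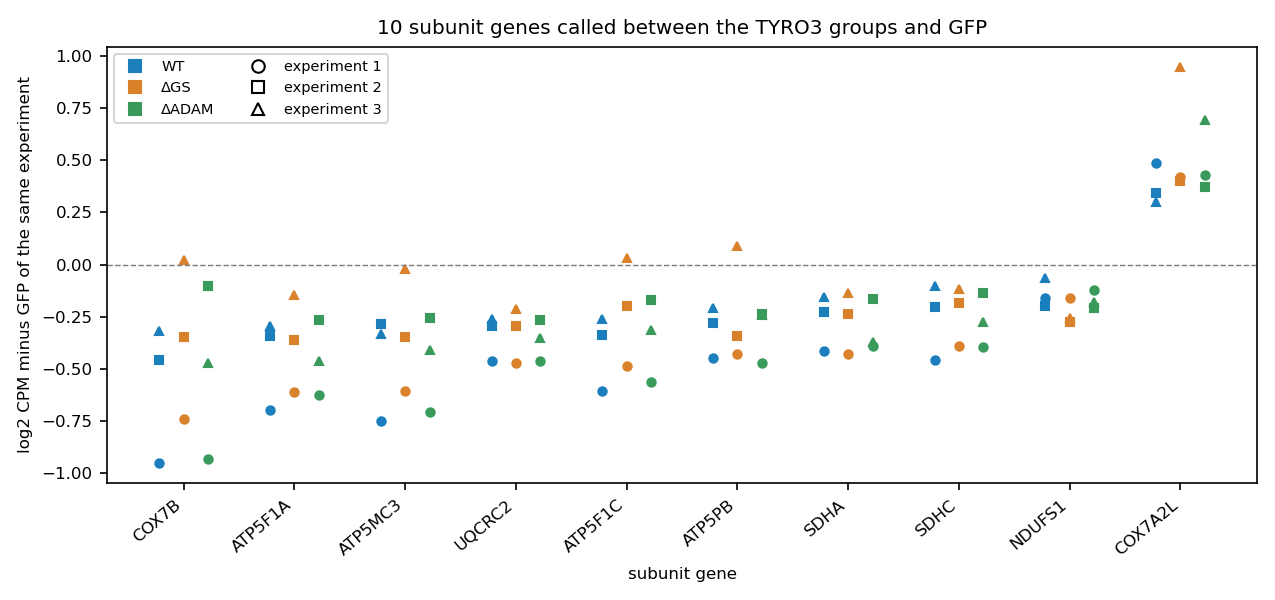
Difference in log2 CPM between each TYRO3 library and the GFP library of the same experiment for 10 of the 11 subunit genes called in the comparison of the 3 TYRO3 groups with GFP. Colours mark the TYRO3 form and symbols the experiment. COX7A2L lies above 0 in all 9 libraries, and UQCRC2, ATP5F1A, ATP5MC3, SDHA, SDHC and NDUFS1 lie below 0 in all 9.

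In complex IV, 1 gene rose and 1 fell among the 10 tested, beside 7.23% of all genes that rose and 8.60% that fell. The median was -0.13, and 0.01 when the experiment 1 control was left out. COX7A2L (chr2:42333546-42425088, GRCh38, minus strand) encodes a relative of the COX7A isoforms known for its role in the assembly of respiratory supercomplexes. It had 77.7, 66.4 and 83.9 TPM in the control libraries. It had 109, 88.1 and 114 TPM with WT, 104, 88.9 and 145 TPM with ΔGS and 111, 88.5 and 136 TPM with ΔADAM TYRO3. All TYRO3 libraries were above all control libraries. The log2 fold change was 0.49 ± 0.11 (edgeR adjusted p = 0.0121), and with ΔGS TYRO3 alone it was 0.60 ± 0.12 (edgeR adjusted p = 0.0186), a 1.52-fold difference. The ratios to the control behind it were 1.34, 1.32 and 1.93 in experiments 1, 2 and 3, in CPM. Without the ΔGS library of experiment 3 the ΔGS value was 0.43 ± 0.10, or 1.35-fold (edgeR adjusted p = 0.0352), and with the experiment 1 control left out it was 0.63 ± 0.15 (edgeR adjusted p = 0.0568). With all libraries it was the only subunit called past 1.5-fold in any of the 6 comparisons, beside 4.69% of all genes with ΔGS TYRO3.

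With the control library of experiment 1 left out, COX7A2L was at 0.525 ± 0.13 (edgeR adjusted p = 0.0504), and with the ΔGS library of experiment 3 left out it was at 0.44 ± 0.07 (edgeR adjusted p = 0.00518). In its protein-coding transcripts alone the log2 fold change was 0.63 ± 0.13 (edgeR adjusted p = 0.0156), with all libraries included. In the control library of experiment 1 its main protein-coding transcript took 46.1% of the counts of the gene, beside 65.3% to 72.4% in the others. The part of this low share in that value was not tested. COX7A2L was the only member above the control in all 9 TYRO3 libraries, whereas 12.7% of all genes were, and 15.9% when the ΔGS library of experiment 3 was left out. Below the control in all 9 were 7 of the 77 genes, beside 13.8% of all genes. In the 8 libraries without the ΔGS library of experiment 3, 44 of 77 were below the control, beside 18.8% of all genes.

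COX7B, a small subunit of complex IV, fell by 0.45 ± 0.13 on the log2 scale (edgeR adjusted p = 0.0334). It had 206, 194 and 199 TPM in the control libraries, 117, 142 and 173 TPM with WT, 134, 161 and 197 TPM with ΔGS and 120, 174 and 160 TPM with ΔADAM TYRO3. The difference was larger in experiment 1, at -0.74 to -0.95 in log2 CPM, than in the others, at -0.47 to 0.02. When the experiment 1 control was left out, COX7B was at -0.26 ± 0.11 (edgeR adjusted p = 0.221), and it lost its call in 14 of 25 alternatives. The abundant genes COX7C, COX8A, COX6A1 and COX6C were at -0.13 ± 0.11, -0.14 ± 0.11, 0.02 ± 0.10 and -0.03 ± 0.09, and none passed.

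In complex I, 2 of 37 genes fell, beside 8.60% of all genes, and none rose. The median was -0.10, and it ran from -0.18 without the experiment 3 control to -0.01 without that of experiment 1. NDUFS1, the largest core subunit, fell by 0.18 ± 0.06 on the log2 scale (edgeR adjusted p = 0.0475) and was below the control in all 9 libraries, the ΔGS library of experiment 3 included. Its call was lost in 21 of 25 alternatives, among them the fit without the experiment 1 control (edgeR adjusted p = 0.140). The abundant NDUFB9, NDUFS5 and NDUFA11 were at -0.20 ± 0.11, -0.04 ± 0.10 and -0.01 ± 0.12 and did not pass.

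NDUFA4 stood out in the control library of experiment 1. It had 381, 163 and 190 TPM in the control libraries and 121 to 208 TPM in the TYRO3 libraries. In the control library of experiment 1 its protein-coding transcript took 41.3% of the counts of the gene, beside 81.9% to 89.7% in the other 11, and transcripts with a retained intron took most of the rest. Its log2 fold change was -0.25 ± 0.12 with an edgeR adjusted p of 0.174, and 0.08 ± 0.11 in protein-coding transcripts alone. Over all 84 genes, retained-intron transcripts took 4.86% of the counts in that library and 2.65% to 4.45% in the others.

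In the ΔGS library of experiment 3 the subunit genes took 0.969% of the counts, beside 0.820% in the control of the same experiment, and the size of the difference went with transcript length. The length of a gene was taken as the mean over its transcripts weighted by TPM. Among the 77 genes, the 26 shortest, of at most 605 bases, had a median log2 CPM difference of 0.40 in this library. The 25 in the middle had 0.32, and the 26 longest, of over 877 bases, 0.09. All of the complex II genes are among these longest, at 1041 to 2073 bases. Spearman's rho between length and difference over the 77 genes was -0.53 in this library, -0.54 in the ΔADAM library of experiment 2 and -0.36 in that of experiment 3. It was between -0.18 and 0.05 in the other 6, and the genes share the libraries and are not independent. The 80 cytosolic ribosomal protein genes, which are also short, had a median difference of 0.46 in the ΔGS library of experiment 3, and the 76 mitochondrial ribosomal protein genes one of 0.24. The part of transcript length in the subunit values of this library was not tested.

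**Figure D4:**
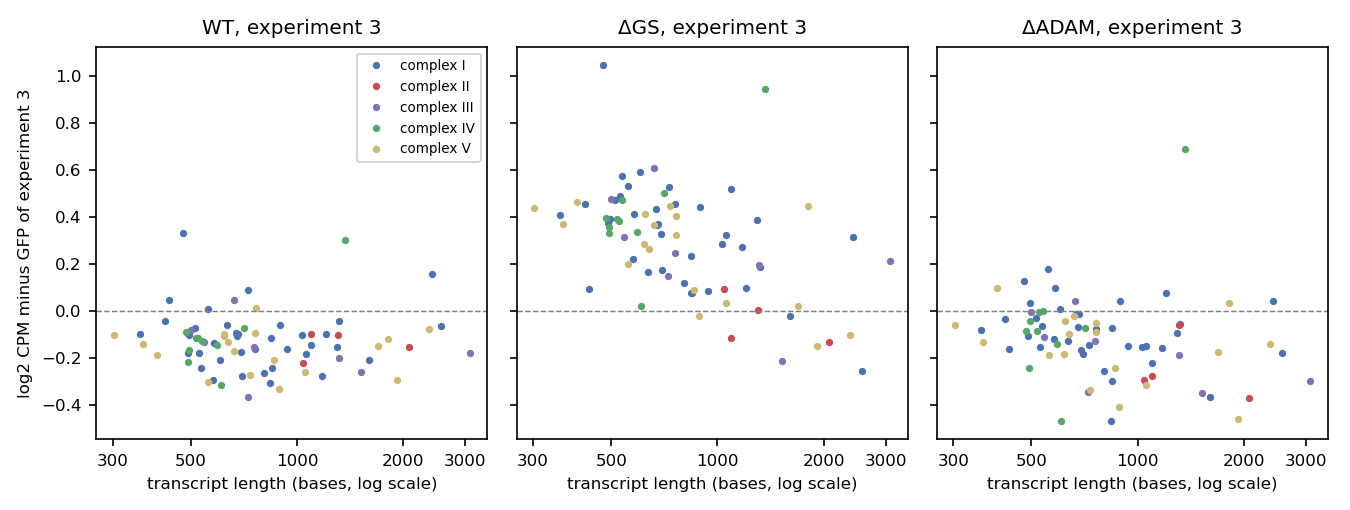
Difference in log2 CPM from the GFP library of experiment 3 against transcript length (bases, log scale) for 77 subunit genes in the WT, ΔGS and ΔADAM libraries of experiment 3. Points are genes, coloured by complex. In the ΔGS library the short genes lie highest, with a median of 0.40 for the 26 shortest and 0.09 for the 26 longest, while in the WT library the medians are -0.13 and -0.15.

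No subunit gene passed a test between the TYRO3 forms. Between WT TYRO3 and the mean of ΔGS and ΔADAM TYRO3, edgeR called 0 of 77 genes, and 0 had an unadjusted p under 0.05. DESeq2 called 0, and limma on log2(TPM + 1) called 0 with 2 at an unadjusted p under 0.05. For ΔGS set against ΔADAM TYRO3, the 3 tools each called 0 of 77 genes, again with 0 below an unadjusted p of 0.05. Over all 15098 genes edgeR called 0 (0%) in either comparison, with 237 (1.57%) and 216 (1.43%) at an unadjusted p under 0.05. The genes with the smallest unadjusted p between WT and the variants were COX6C at -0.18 ± 0.10, ATP5MG at -0.17 ± 0.10 and ATP5MF at -0.18 ± 0.11. Between ΔGS and ΔADAM they were NDUFA9 at 0.14 ± 0.07, NDUFB6 at 0.22 ± 0.11 and NDUFS3 at 0.20 ± 0.11. The lowest edgeR adjusted p over the members was 0.9997 and 0.9998, so differences of this size could not be told from the spread between experiments.

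The median over the 77 genes was 0.13 for ΔGS against ΔADAM TYRO3, and 76 of them were above 0. Within experiments 1, 2 and 3 the medians were 0.04, -0.11 and 0.41, so the sign was that of experiment 3. Without the ΔGS library of experiment 3 the median was -0.03. The median for WT against the variants was -0.09 with all libraries and -0.0005 without that library.

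The other genes of the pathway did not all move like the subunits. Of the 6 listed subunits and carriers outside the name rule, 5 were tested and 1 fell, CYCS, which encodes cytochrome c, by 0.19 ± 0.06 on the log2 scale (edgeR adjusted p = 0.0443). This call was lost in 22 of 25 alternatives, and with the experiment 1 control left out CYCS was at -0.16 ± 0.07 (edgeR adjusted p = 0.217). CYC1, cytochrome c1 of complex III, was at -0.21 ± 0.09 and did not pass. The 13 genes of mitochondrial DNA had a median of -0.16. It was -0.05 when the experiment 1 control was left out and -0.17 when the ΔGS library of experiment 3 was. Of these 13 genes, edgeR, DESeq2 and limma called 0 with all libraries, and 3 had an unadjusted edgeR p under 0.05. MT-ND1 and MT-ND4L had the smallest p, at -0.16 ± 0.06 and -0.36 ± 0.16, with edgeR adjusted p of 0.122 and 0.148.

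Of the 49 assembly factors, 1 rose and 1 fell, beside 7.23% of all genes that rose and 8.60% that fell, with a median of -0.01. TMEM70, an assembly factor of complex V, had 38.9, 47.4 and 48.5 TPM in the control libraries and 57.2 to 69.8 TPM in the TYRO3 libraries, without overlap. It rose by 0.41 ± 0.09 on the log2 scale (edgeR adjusted p = 0.0129). ECSIT, which takes part in complex I assembly, fell by 0.39 ± 0.10 (edgeR adjusted p = 0.0243). When the experiment 1 control was left out, they were at 0.34 ± 0.09 and -0.31 ± 0.10, with edgeR adjusted p of 0.0619 and 0.117. TMEM70 lost its call in 4 of 25 alternatives and ECSIT in 11. Among the assembly factors, 1 rose and 6 fell without the ΔGS library of experiment 3. In that fit 22.4% of all genes were called and 13.0% fell. NDUFAF3, SDHAF1, SDHAF3, UQCC1, UQCC2, COA3, LRPPRC and ATPAF2, the other genes with the smallest p in their lists, had log2 fold changes of -0.35 to 0.09 and did not pass.

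The enzymes of the tricarboxylic acid cycle, which feed electrons to complexes I and II, were listed beside the subunits. Of 13 genes, 9 fell and none rose, beside 8.60% of all genes that fell, and their median was -0.28. Of these enzymes, 12 fell without the ΔGS library of experiment 3, beside 13.0% of all genes that fell. With the experiment 1 control left out 4 fell and 0 rose, beside 4.51% of all genes called in either direction, and the median was -0.22. The list was chosen with earlier results known. In single groups 3, 6 and 7 fell with WT, ΔGS and ΔADAM TYRO3, beside 1.44%, 4.44% and 5.32% of all genes. OGDH, a subunit of the oxoglutarate dehydrogenase complex, had 66.6, 85.3 and 69.7 TPM in the control libraries and 40.7 to 64.9 TPM in the TYRO3 libraries, and its log2 fold change was -0.54 ± 0.06 (edgeR adjusted p = 0.000829). CS, citrate synthase, had 198, 198 and 196 TPM in the control libraries. It had 141, 172 and 173 TPM with WT, 152, 152 and 124 TPM with ΔGS and 152, 158 and 143 TPM with ΔADAM TYRO3. All TYRO3 libraries lay below the controls, and the log2 fold change was -0.45 ± 0.07 (edgeR adjusted p = 0.00388). Unlike most subunit genes, OGDH and CS were lowest within experiment 3 in the ΔGS library. In that library 8 of 77 subunit genes were also below the control, and among the subunits the difference went with transcript length. The lengths of OGDH and CS were not part of that comparison. Without the control library of experiment 1 they were at -0.50 ± 0.07 and -0.36 ± 0.08 and were still called.

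Among the 11 regulators of mitochondrial genes, PPARGC1A and YY1 fell, beside 8.60% of all genes, and none rose. PPARGC1A had 19.7, 24.7 and 15.7 TPM in the control libraries. It had 8.85, 14.9 and 9.17 TPM with WT, 7.25, 15.3 and 3.88 TPM with ΔGS and 7.66, 14.1 and 5.65 TPM with ΔADAM TYRO3. All TYRO3 libraries were below all control libraries. The log2 fold change was -1.005 ± 0.10 (edgeR adjusted p = 0.000603), and it was called in each single group and with either of the libraries that stood apart left out. YY1, named because it was called, was at -0.22 ± 0.05 (edgeR adjusted p = 0.0197). It lost its call in 11 of 25 alternatives, among them the fit without the experiment 1 control (edgeR adjusted p = 0.0916). NRF1, the transcription factor of the motif above, and TFAM, the packaging factor of mitochondrial DNA, were at 0.04 ± 0.08 and 0.04 ± 0.06 with edgeR adjusted p of 0.787 and 0.677.

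The melanocyte markers moved in the same comparison. Of 8 genes, 5 fell, beside 8.60% of all genes, and none rose. Among them was MITF at -0.96 ± 0.17 (edgeR adjusted p = 0.00581). With the experiment 1 control left out edgeR called 0 of the 8, with 3 at an unadjusted p under 0.05. Their summed level was 1643 to 1989 TPM in the control libraries, 1068 to 1987 with WT, 1096 to 1605 with ΔGS and 1103 to 1659 with ΔADAM TYRO3. The part of MITF or PPARGC1A in the subunit values was not tested. Of the markers of other cell types, LUM of the fibroblast list fell and COL1A1 and the endothelial gene KDR rose. LUM and KDR were still called when the experiment 1 control was left out, and COL1A1 was not. The summed levels of the lists were 47.4 to 94.7 TPM for fibroblasts, 77.4 to 117 TPM for keratinocytes, carried by KRT10, 33.2 to 55.5 TPM for immune cells, carried by CD68, and 3.27 to 10.7 TPM for endothelial cells.

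**Figure D5:**
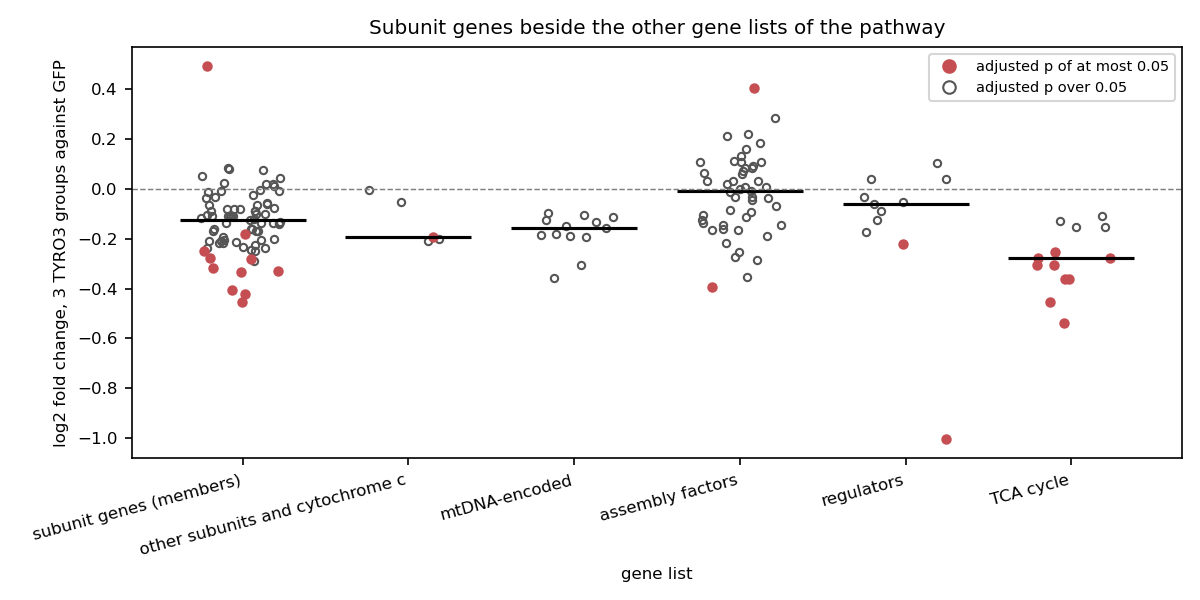
Log2 fold change of the 3 TYRO3 groups against GFP for the 77 subunit genes and for the other gene lists of the pathway. Points are genes, filled where the edgeR adjusted p was at most 0.05, and black lines are medians. The TCA cycle genes lie lowest with a median of -0.28, the assembly factors scatter around 0, and the lowest point is PPARGC1A at -1.005.

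Summed over a complex, the levels give the size of the shift in transcripts rather than in genes. The 84 genes together had 17670, 17970 and 19160 TPM in the control libraries. As a ratio to the control of the same experiment, the sum was 0.857, 0.9035 and 0.952 with WT, 0.858, 0.928 and 1.15 with ΔGS and 0.863, 0.961 and 0.980 with ΔADAM TYRO3. Complex II had ratios of 0.738, 0.9065 and 0.968 with WT, 0.760, 0.905 and 0.9095 with ΔGS and 0.786, 0.901 and 0.894 with ΔADAM TYRO3. It was the only complex below 1 in all 9 libraries, which rests mainly on the ΔGS library of experiment 3. There complexes I, III, IV and V were at 1.19, 1.16, 1.22 and 1.10. In all other libraries complexes I, III and V were below 1 too. Complex IV ranged from 0.846 to 1.22 and was also above 1, at 1.01, in the ΔADAM library of experiment 3. In each group the ratios were lowest in experiment 1, whose control library had the lowest depth, and the part of that library was not tested beyond leaving it out.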

How the data were processed

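Total RNA of WM-266-4 cells was sequenced as stranded, paired-end mRNA libraries. Per the labels and the study's methods, reads were trimmed with Trimmomatic (0.33) and quantified with kallisto (0.46.0) on GRCh38 transcripts. The authors deposited an estimated count and a TPM (transcripts per 1000000) per transcript and library, without their later batch correction. Here both were summed per gene through GENCODE v29 (169797 of 188753 transcripts matched), and counts were rounded. kallisto divides reads among transcripts and copies of a gene, so levels of near-identical genes are uncertain.

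The edgeR (4.0.16) quasi-likelihood test was fitted to all 12 libraries with TMM factors and the experiment as a block, on 15098 genes left by filterByExpr (minimum count 10). P-values were adjusted over all genes by Benjamini and Hochberg, and genes at 0.05 or below were called. Log2 CPM used a prior count of 2. The labels number the experiments, so equal numbers pair libraries. Correlations of deviations from the group means were 0.0384 to 0.529 within experiments. For the RNA libraries, the sources used here do not say whether the experiments were separate cultures, so p-values measure the spread between these samples. Libraries of a group differed by more than sampling noise.

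The members and gene lists were chosen with earlier results of these data known. Genes were named by a fixed rule: all of complex II, the 3 highest and the 2 with the smallest p of every other complex, the 3 with the smallest p between TYRO3 forms, genes called past 1.5-fold, tissue isoforms, the c subunit genes, NDUFA4, COX7A2L, UQCRHL, PPARGC1A, TFAM, NRF1, TYRO3 and the 2 with the smallest p of each other list. Some genes that the rule or the lists hold are not reported here by name. The scripts were tested on simulated data. DESeq2 (1.42.0), limma (3.58.1) on log2(TPM + 1), other filters and left-out libraries were tried as alternatives.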

Additional observations from a re-analysis of the deposited data

How the results depend on the processing

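Counts of called subunits changed with most settings, so few of them are stable. In the order of the 3 TYRO3 groups, WT, ΔGS and ΔADAM against GFP, edgeR called 11, 2, 3 and 6 genes with the experiment as replicate block. Of all genes tested it called 15.8%, 3.58%, 8.95% and 10.2%. With no replicate block but a batch term for experiment 1, the counts were 4, 0, 0 and 0 (14, 11, 7 and 12 at an unadjusted p under 0.05). Of all genes 6.53%, 0.0397%, 0.53% and 1.4% were then called. With neither term the counts were 0, 0, 0 and 0 (12, 7, 3 and 8 unadjusted), beside 0.139%, 0.0199%, 0.0265% and 0.0331% of all genes. In experiments 2 and 3 alone they were 0, 0, 0 and 0 (5, 5, 3 and 5 unadjusted), beside 2.77%, 0.314%, 1.29% and 1.5%. With a fold over 1.5 they were 0, 0, 1 and 0, beside 5.68% of all genes in the first comparison and 4.69% with ΔGS. DESeq2 called 10 with WT, 5 with ΔGS and 10 with ΔADAM, beside 9.21%, 13.5% and 14.5% of all genes. Fitting only the groups compared gave 0 with WT (43 unadjusted) and 0 with ΔGS (6 unadjusted), beside 0.212% and 3.68%. Protein-coding transcripts alone gave 0 with WT (18 unadjusted) and 1 with ΔGS, beside 2.33% and 6.84% of all genes. No filter gave 5 with WT, beside 3.62%. Leaving out single libraries gave 1 to 36, 0 to 16, 0 to 13 and 0 to 23 calls. The lowest (for the single groups among others) came without the control of experiment 1, beside 4.51%, 1.12%, 2.24% and 2.47% of all genes. The highest came without the ΔGS library of experiment 3, beside 22.4%, 8.76%, 7.41% and 17.6% of all genes. In the comparison of the 3 TYRO3 groups every other left-out library except WT 3 and ΔADAM 2 also moved the count by over 1.5 times, to between 4 and 7. With both libraries that stood apart left out, which was chosen after seeing the data, WT gave 5 and ΔGS 0 (22 unadjusted). Of all genes 2.98% and 1.73% were called there. The median of the subunits with WT TYRO3 ran from -0.29 to -0.10 over the left-out libraries. The smallest library, with 4008293 counts, was the experiment 1 control, which is on neither side of the comparisons between TYRO3 forms. With 3 libraries a group, differences of the size seen between these forms could not be told from the spread. The cause of the changes in the counts of calls was not tested.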
